A study of Mus musculus with 11 samples.

Results

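The genes described here are a chosen list of 30 genes for cholesterol and fatty acid synthesis and its control, matched by Ensembl gene ID in a table of 37820 IDs. A row was found for 28 of the 30, and the mevalonate pathway enzymes Hmgcs1 and Mvd were not analysed here. The 28 were 17 sterol enzymes, 5 fatty acid enzymes, 5 regulators and the sterol carrier Stard4. The sterol enzymes stepped down along blood stem cell development: their summed level was 642 to 701 FPKM (fragments mapped to a gene, scaled to its length and to the size of the library) in the endothelial libraries, 375 to 403 in pre-HSCs and 202 to 277 in fetal liver and bone marrow HSCs. In a split of libraries chosen after the values were seen, the regulators Srebf1, Srebf2 and Scap were higher in every fetal liver and bone marrow library than in any earlier one. This held for 3 of the 28 genes and for 20.3% of all genes, and Srebf2 was not called in any step.

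Cells build cholesterol from acetyl-CoA through mevalonate, isoprenoids and squalene, and the same isoprenoids are used to anchor proteins in membranes. The SREBP transcription factors, encoded by Srebf1 and Srebf2, are escorted by SCAP out of the endoplasmic reticulum when sterols are scarce, are cut free in the Golgi and switch on the genes of synthesis, whereas INSIG proteins hold SCAP back when sterols are plentiful. SREBP proteins are known to act at sterol elements together with NF-Y and Sp1. Lipid synthesis supplies membranes, and HSCs of the fetal liver are known to divide much more than the mostly quiescent HSCs of adult marrow.

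RNA-seq of 5 sorted mouse populations gave 11 libraries, 3 from pre-HSCs and 2 from each other population. Endo are endothelial cells without Runx1 reporter signal (sorted as Runx1:GFP-, CD31+, negative for c-Kit, CD45 and CD41), and HE is hemogenic endothelium, the endothelium that gives rise to blood (sorted as Runx1:GFP+, CD31+, low or negative for c-Kit, negative for CD45 and CD41). Both came from the major arteries of pooled E10.5 embryos, sired by males with GFP in the endogenous Runx1 locus and carried by B6C3F1 females. Pre-HSCs are cluster cells of the arteries that mature into HSCs but do not yet engraft adults (CD31+ CD144+ ESAM+ c-Kit+ Ly6a:GFP+). They came from superovulated B6C3F1/J females crossed to males with a GFP transgene driven by Ly6a (Sca1) sequences. The labels give E10.5 for pre-HSCs, where the methods of the study give a later day. FL HSCs were sorted from E14.5 fetal liver (Lin- Sca1+ c-Kit+ CD150+ CD48-) of crosses between B6C3F1/J females and B6129SF1/J males. BM HSCs were sorted from bone marrow of B6C3F1/J and B6129SF1/J mice of both sexes aged 6 to 8 weeks (Lin- Sca1+ c-Kit+ CD150+, with CD48- CD135- in the methods and CD34- in a supplement of the study). The labels give B6129SF1 as the strain of every library, while by the methods the crosses differed with the population, so cross and population cannot be told apart.

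Library totals ran from 569851 to 789161 FPKM, and the number of reads behind them is unknown. Markers of endothelium and blood followed the sorts. Summed over 7 endothelial genes, the level was 1817 to 1904 FPKM for Endo, 1438 to 1524 for HE and 1915 to 2119 for pre-HSCs. It was 91.3 to 106 in FL and BM HSCs. The 5 blood genes summed to 6.88 to 14.9 FPKM for Endo and HE, 159 to 293 for pre-HSCs and 701 to 817 in FL and BM HSCs. Markers of other cells were uneven. Summed over 7 erythroid genes, levels were 441 to 641 FPKM for Endo and HE, 57.0 to 90.6 for pre-HSCs, 110 to 245 for FL HSCs and 7.30 to 15.1 for BM HSCs. The 7 macrophage genes summed to 4.64 to 11.1 FPKM for Endo and HE, 220 to 1183 for pre-HSCs, 108 to 373 for FL HSCs and 108 to 131 for BM HSCs. In BM HSCs nearly all of this was Lyz2, at 101 and 127 FPKM, with each other macrophage gene at most 3.19. Lyz2 also made up 70.5 of the 108 FPKM in FL HSC replicate 2. Hepatocytes and adipocytes are known for making much lipid. The 8 hepatocyte genes summed to at most 42.7 FPKM in any library, with Alb at most 10.8 and Afp at most 21.6. Adipoq and Lep, which define adipocytes, were listed at 0 in all 11.

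Calls came from limma, fitted to log2(FPKM + 1) of all 11 libraries. A called gene differed among the 5 populations (moderated F test, adjusted p under 0.01) and between the pair compared (adjusted p under 0.05), by 2-fold or more. All 28 genes were among the 14708 tested. The F test was passed by 19 of the 28, against 57.1% of all genes, and 12 were called between neighboring populations, against 35% of all genes. These shares lie near the background, so the lipid genes were not set apart by how many of them changed. Of the 28, HE held the highest mean level for 13 and Endo for 5, while BM HSCs held the lowest for 12 and FL HSCs for 8. The same was not counted over all genes, so these counts do not set the lipid genes apart.

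**Figure D1:**
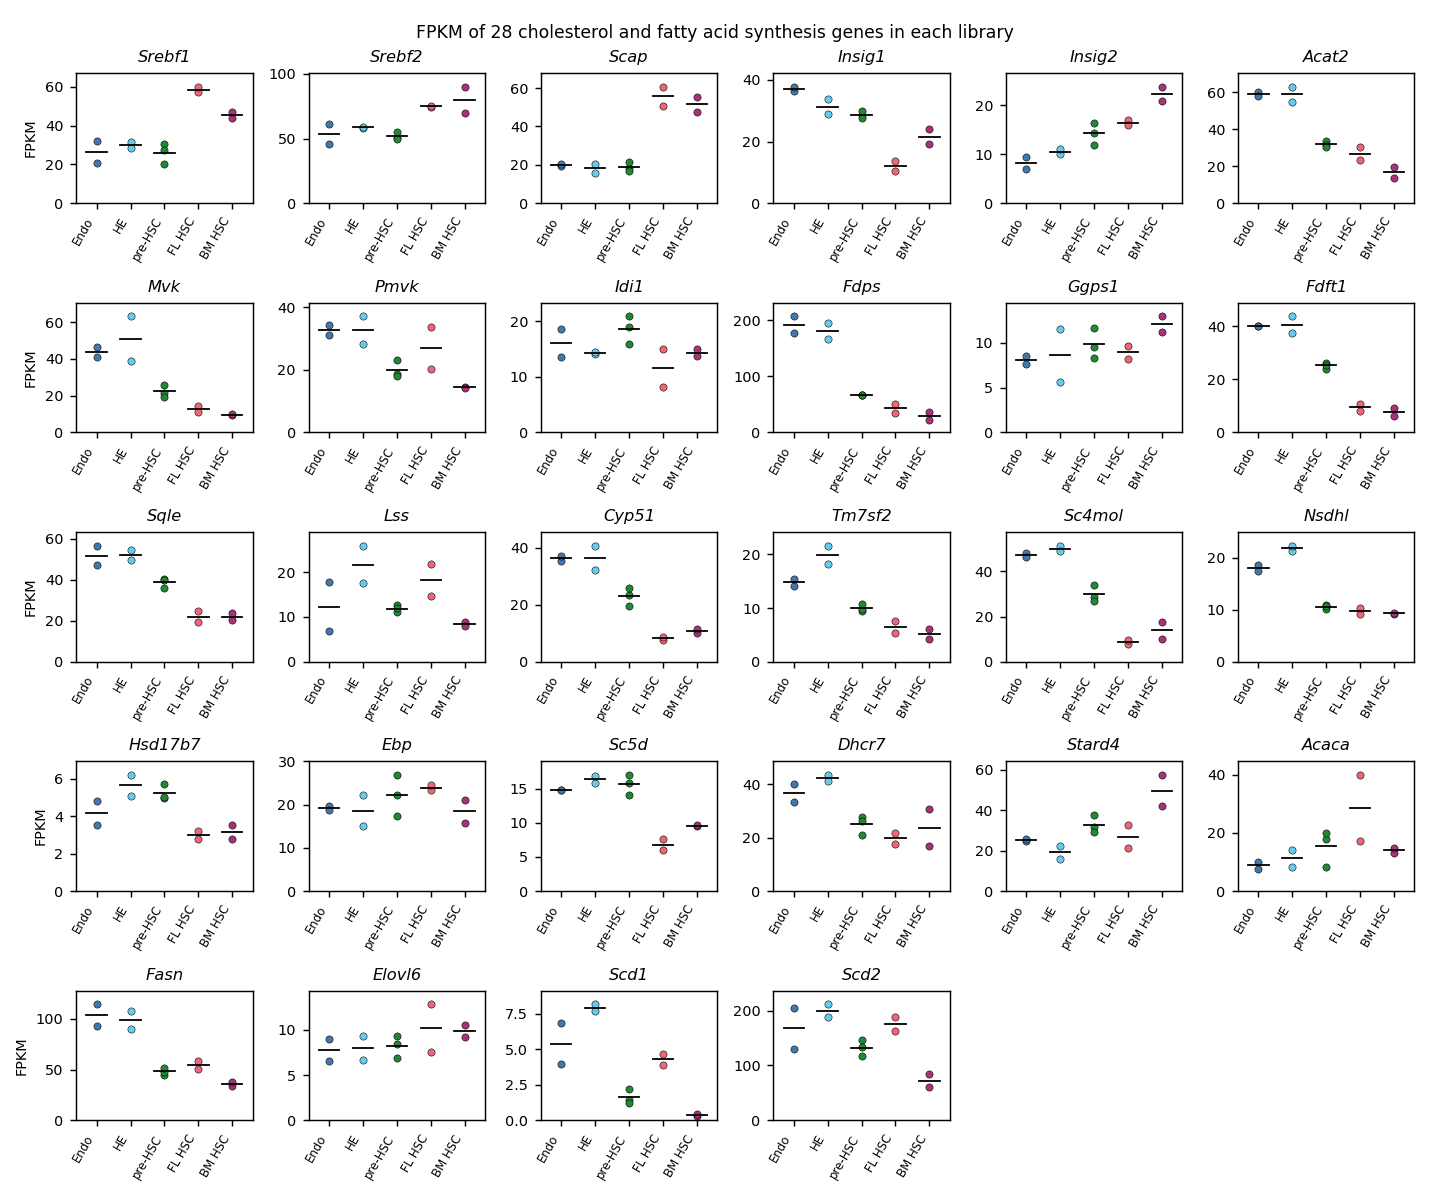
FPKM of each of the 28 genes (vertical axes, linear from 0) in the 5 populations, with 1 point per library and a line at the mean. The sterol enzymes Fdps, Fdft1 and Cyp51 are lower in pre-HSCs than in the endothelium and lower again in FL HSCs, whereas Scap stays at 15.6 to 21.3 FPKM in the first 3 populations and reaches 47.5 to 60.5 in FL and BM HSCs.

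The question of the comparison between Endo and HE was whether endothelium that forms blood differs from other arterial endothelium. With limma, none of the 28 genes was called where 0.129% of all genes were. A single gene passed an unadjusted p of 0.05. It was Lss, which closes squalene epoxide into lanosterol, the first sterol, with a change of 0.88 ± 0.36 (log2, SE, limma adjusted p of 0.533). The Endo libraries held 6.80 and 17.8 FPKM of Lss and the HE libraries 17.5 and 25.9, so the populations overlapped and the Endo libraries stood as far apart as the population means. By library, 8 of the 28 genes were higher in HE and 2 lower without overlap, against 21.3% and 13.7% of all genes. The median log2 fold change of the 28 genes was 0.06, beside 0.03 over all genes.

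From HE to pre-HSCs, 4 genes fell at least 2-fold and none rose, where limma called 4.34% of all genes lower and 6.98% higher. They were Scd1 and Fasn of fatty acid synthesis and Fdps and Mvk of the mevalonate branch. The median log2 fold change was -0.68 over the 17 sterol enzymes and -0.51 over the 28 genes, against 0.09 over all genes. In bulk samples, fewer cells of a type and less RNA per cell cannot be told apart.

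Fdps (chr3:88897514-88905881 in mm9, minus strand) makes farnesyl diphosphate, from which both sterols and protein anchors are drawn. It was the most abundant sterol enzyme of the endothelium, at 207 and 178 FPKM in Endo and 194 and 168 in HE. The pre-HSC libraries held 66.9, 67.1 and 66.9 FPKM, FL HSCs 51.5 and 35.0 and BM HSCs 22.5 and 35.8. No pre-HSC library came near an endothelial one, and the 3 pre-HSC values were almost equal. The log2 fold change from HE to pre-HSCs was -1.42 ± 0.21 (log2, SE, limma adjusted p of 0.00165).

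Mvk (chr5:114894278-114910600, plus strand) phosphorylates mevalonate. It was at 46.3 and 41.1 FPKM for Endo, 63.1 and 39.1 for HE, 21.6, 19.4 and 25.9 for pre-HSCs, 14.3 and 10.9 for FL HSCs and 9.55 and 9.87 for BM HSCs. Levels were lower in each population after HE with no overlap between neighbors. Its change from HE to pre-HSCs was -1.13 ± 0.21 (log2, SE, limma adjusted p of 0.00485). The call was lost without HE replicate 1, the higher of the HE libraries, where the change was -0.79, and with FPKM scaled to equal totals.

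Fasn (chr11:120667254-120685492, minus strand) is the synthase that builds palmitate. Its levels were 93.1 and 114 FPKM for Endo, 107 and 90.3 for HE, 44.9, 47.9 and 51.8 for pre-HSCs, 58.0 and 50.5 for FL HSCs and 33.7 and 37.3 for BM HSCs. Every endothelial library lay above every later one. From HE to pre-HSCs the log2 fold change was -1.02 ± 0.14 (log2, SE, limma adjusted p of 0.00113), just past the 2-fold limit, and it fell short of that limit under 4 of 22 alternatives, among them the omission of HE replicate 1, where it was -0.89, or of pre-HSC replicate 1, where it was -0.97.

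Scd1 (chr19:44468941-44482199, minus strand) encodes a desaturase that puts the double bond into palmitate and stearate. It was at 3.94 and 6.85 FPKM for Endo, 7.68 and 8.15 for HE, 2.19, 1.47 and 1.26 for pre-HSCs, 3.92 and 4.70 for FL HSCs and 0.314 and 0.451 for BM HSCs. Its low levels alternated between neighboring populations, with no overlap between any neighbors. The change from HE to pre-HSCs was -1.77 ± 0.24 (log2, SE, limma adjusted p of 0.00114), and this scale understates the change of a gene at so few FPKM.

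Other sterol enzymes were lower by less than 2-fold. Without the fold limit, limma put 11 of the 28 genes lower and 1 higher in pre-HSCs, where it put 10.3% of all genes lower and 13.4% higher. Nsdhl, which removes methyl groups from the sterol ring, lay just inside 2-fold with a change of -0.98 ± 0.13 (log2, SE, limma adjusted p of 0.000887), from 21.3 and 22.3 FPKM in HE to 10.1, 10.98 and 10.7. Tm7sf2, a sterol reductase, was at -0.91 and Acat2, which joins acetyl-CoA units at the start of the pathway, at -0.87. The 1 higher gene was Stard4, which carries cholesterol between membranes, with a change of 0.76 ± 0.22 (log2, SE, limma adjusted p of 0.0303).

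Counted by library, 16 of the 28 genes had all 3 pre-HSC libraries below both HE libraries, where 26.4% of all genes did, and 12 of these were sterol enzymes. The opposite held for 3 genes, against 34.3% of all genes. Erythroid markers moved the same way, with 5 of 7 called lower, and macrophage markers the opposite way, with 7 of 7 called higher. Of 7 endothelial markers, 2 were called higher and none lower. The 7 proliferation genes summed to 910 to 982 FPKM in HE and 697 to 733 in pre-HSCs, with none called. The part of all these markers in the results was not tested.

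**Figure D2:**
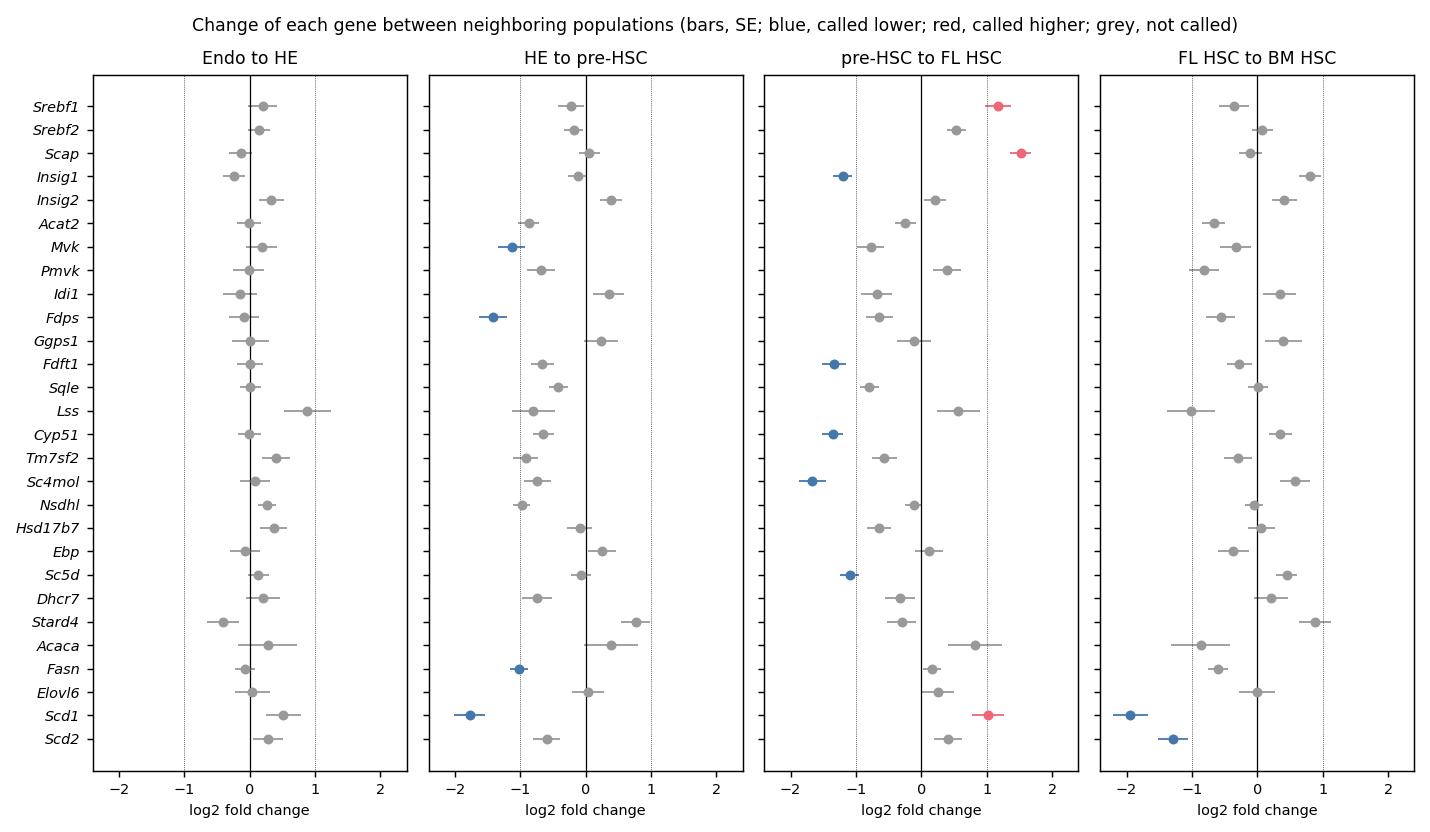
Log2 fold change (horizontal axes, on the log2(FPKM + 1) scale) of each of the 28 genes between neighboring populations, with bars of 1 SE. Points in color were called by limma, blue for lower and red for higher, and dotted lines mark 2-fold. No point is colored from Endo to HE, 4 are blue from HE to pre-HSCs, 5 are blue and 3 red from there to FL HSCs, and 2 are blue from FL to BM HSCs.

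From pre-HSCs to FL HSCs, as blood stem cells move from the arteries to the liver, 5 genes fell and 3 rose, where limma called 13.9% of all genes lower, 11.1% higher and 25.0% in all. With FPKM scaled to equal totals, 7 fell and 1 rose, where 1128 of 3455 calls over all genes were higher. Without FL HSC replicate 2, the log2 fold changes of Srebf1 and Scd1 were 1.14 and 0.92. With FPKM as deposited, those that fell were the sterol enzymes Sc4mol, Cyp51, Fdft1 and Sc5d and the anchor gene Insig1. Those that rose were the regulators Scap and Srebf1 and the desaturase Scd1. The median log2 fold change was -0.64 over the 17 sterol enzymes, 0.53 over the 5 regulators and 0.40 over the 5 fatty acid enzymes, beside 0.11 over all genes.

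Promoter sequences of the called genes are shown for the boxes known to work with SREBP proteins. They are RefSeq promoters of GRCm38.p6, each the 200 bases before the first listed start, and capitals mark CCAAT or GGGCGG on either strand. Of the 8 called genes, 5 are shown, Fdft1 and Scd1 were not matched to a promoter, and Srebf1, which has several promoters, is not shown. Sc4mol (chr8:64733579-64733778, minus strand) held 3 CCAAT boxes and 2 GC boxes, Cyp51 (chr5:4104698-4104897, minus strand) 1 of each, Sc5d (chr9:42264301-42264500, minus strand) 1 CCAAT box, and Insig1 (chr5:28071212-28071411, plus strand) 2 GC boxes. Scap (chr9:110333088-110333287, plus strand), which rose, held neither in this window. These counts are for the printed windows alone. Whole promoters also include other listed starts, bases further upstream and bases after the start. A single whole promoter held up to 3 GC boxes for Scap, 4 for Sc5d and 3 for Insig1, and 1 CCAAT box for Insig1.
Sc4mol: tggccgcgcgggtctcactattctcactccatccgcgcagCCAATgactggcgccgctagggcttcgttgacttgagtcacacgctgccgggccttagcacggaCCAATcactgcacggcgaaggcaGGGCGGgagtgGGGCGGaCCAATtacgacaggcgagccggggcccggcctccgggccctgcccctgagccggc
Cyp51: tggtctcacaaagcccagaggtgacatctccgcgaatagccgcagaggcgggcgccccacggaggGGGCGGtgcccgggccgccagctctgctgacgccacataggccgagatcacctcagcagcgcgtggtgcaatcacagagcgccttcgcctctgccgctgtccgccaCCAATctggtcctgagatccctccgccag
Sc5d: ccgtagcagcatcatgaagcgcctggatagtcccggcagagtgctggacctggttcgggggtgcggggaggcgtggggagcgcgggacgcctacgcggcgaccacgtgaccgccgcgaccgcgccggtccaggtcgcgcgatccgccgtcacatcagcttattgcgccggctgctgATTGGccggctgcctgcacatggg
Insig1: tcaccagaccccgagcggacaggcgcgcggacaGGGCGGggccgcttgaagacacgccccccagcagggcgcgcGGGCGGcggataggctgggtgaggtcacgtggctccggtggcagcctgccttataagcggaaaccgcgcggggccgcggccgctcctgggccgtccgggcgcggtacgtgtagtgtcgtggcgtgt
Scap: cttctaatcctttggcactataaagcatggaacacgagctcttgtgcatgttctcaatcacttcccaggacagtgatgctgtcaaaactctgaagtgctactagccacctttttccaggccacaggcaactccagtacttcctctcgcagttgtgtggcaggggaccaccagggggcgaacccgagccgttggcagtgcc

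Across the whole promoter, from 250 bases before to 50 after a start, CCAAT on either strand was found for 20 of the 24 listed genes that have a promoter (83.3%), where 41.1% of 27025 genes had it. These 27025 are genes with a RefSeq promoter, expressed here or not, and are not the 14708 genes tested. Promoters of chromosome 18, where Stard4 lies, were left out. GGGCGG on either strand was found for 19 of the 24 (79.2%), against 38.2% of all genes, and no CCAAT box shared bases with a GC box in these promoters. The sterol element searched, TCACNCCAC on either strand, was found for 1 of the 24, Hmgcs1, and for 1.44% of all genes. The genes that rose and fell were not separated by these letters, since both Srebf1, which rose, and Cyp51, which fell, held both boxes. A match is a description of these letters and not a site.

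Sc4mol (now named Msmo1, chr8:67196936-67212589 in mm9, minus strand) oxidizes a methyl group of the sterol ring. Its levels were 48.0 and 46.4 FPKM for Endo, 51.4 and 48.9 for HE, 33.8, 28.9 and 26.7 for pre-HSCs, 7.67 and 9.73 for FL HSCs and 10.1 and 17.6 for BM HSCs. The FL HSC libraries were the lowest of all, and every FL and BM library lay below every pre-HSC library. With a log2 fold change of -1.67 ± 0.21 from pre-HSCs to FL HSCs (log2, SE, limma adjusted p of 0.000127), it fell the most of the 28 genes in this step.

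Cyp51 (chr5:4081145-4104746, minus strand), the lanosterol demethylase, stood at 35.5 and 37.2 FPKM for Endo, 32.2 and 40.7 for HE, 23.5, 25.9 and 19.5 for pre-HSCs, 7.77 and 8.86 for FL HSCs and 10.2 and 11.5 for BM HSCs. Its change to FL HSCs was -1.36 ± 0.16 (log2, SE, limma adjusted p of 8.85e-05). Fdft1 (chr14:63763990-63796630, minus strand) is squalene synthase, the step that commits farnesyl diphosphate to sterols. It was nearly level in the endothelium, at 40.2 and 40.0 FPKM for Endo and 43.7 and 37.3 for HE, and then at 26.0, 24.1 and 25.6 for pre-HSCs, 10.8 and 8.03 for FL HSCs and 6.14 and 9.25 for BM HSCs. Both genes formed 3 separate tiers of libraries, of endothelium, pre-HSCs and later HSCs. The change of Fdft1 from pre-HSCs to FL HSCs was -1.34 ± 0.18 (log2, SE, limma adjusted p of 0.000207).

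Sc5d (chr9:42062260-42072383, minus strand) adds a double bond late in the pathway and kept its level through pre-HSCs. It was at 14.8 and 14.8 FPKM for Endo, 15.8 and 16.9 for HE, 17.0, 15.8 and 14.0 for pre-HSCs, 5.99 and 7.61 for FL HSCs and 9.46 and 9.73 for BM HSCs. Pre-HSC libraries overlapped those of the endothelium, and the FL and BM libraries lay below all of them. The change to FL HSCs was -1.09 ± 0.15 (log2, SE, limma adjusted p of 0.000206), and without FL HSC replicate 1 it was -0.94 and not called.

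Insig1 (chr5:28397952-28405201, plus strand), itself a target of SREBP proteins, fell with the sterol enzymes from pre-HSCs to FL HSCs but not in the steps before and after. It was at 36.3 and 37.7 FPKM for Endo, 29.0 and 33.7 for HE, 28.6, 29.8 and 27.6 for pre-HSCs, 10.3 and 13.6 for FL HSCs and 19.1 and 23.9 for BM HSCs. FL HSCs were lowest without overlap with any other population. Its change from pre-HSCs to FL HSCs was -1.21 ± 0.15 (log2, SE, limma adjusted p of 0.000133), and from there to BM HSCs it was 0.80 ± 0.17 (log2, SE, limma adjusted p of 0.00841), under the 2-fold limit. From HE to pre-HSCs its change was -0.12 (limma adjusted p of 0.575). The sterol enzymes had a median of -0.68 from HE to pre-HSCs and of -0.05 from FL to BM HSCs.

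Scap (chr9:110235792-110287450, plus strand) rose the most of the 28 genes. It was at 19.2 and 20.4 FPKM for Endo, 15.6 and 20.5 for HE, 18.4, 21.3 and 16.7 for pre-HSCs, 60.5 and 50.9 for FL HSCs and 47.5 and 55.4 for BM HSCs. Libraries of the first 3 populations overlapped one another, and those of FL and BM HSCs did too, with a wide gap between. The log2 fold change to FL HSCs was 1.52 ± 0.16 (log2, SE, limma adjusted p of 4.44e-05), and the call held under all 22 alternatives.

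Srebf1 (chr11:60012591-60036083, minus strand) encodes the SREBP form tied more to fatty acids. It was at 20.9 and 32.1 FPKM for Endo, 31.3 and 28.5 for HE, 30.3, 20.01 and 27.4 for pre-HSCs, 57.4 and 59.9 for FL HSCs and 43.8 and 47.3 for BM HSCs. Levels before FL HSCs overlapped, and both later populations lay above them. From pre-HSCs to FL HSCs it rose by a change of 1.17 ± 0.20 (log2, SE, limma adjusted p of 0.00111), a call lost with FPKM scaled to equal totals, where the change was 0.93, and without FL HSC replicate 2. Srebf2 (chr15:81977696-82035806, plus strand), the form tied more to sterols, was at 46.0 and 61.0 FPKM for Endo, 58.5 and 58.8 for HE, 50.7, 54.8 and 49.3 for pre-HSCs, 74.5 and 75.5 for FL HSCs and 69.7 and 89.7 for BM HSCs. Its libraries fell into the same pair of tiers, with a change of 0.53 ± 0.15 (log2, SE, limma adjusted p of 0.0143) to FL HSCs that was not called.

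Insig2 (chr1:123200930-123229166, minus strand) had the lowest levels among regulators in the endothelium. It was at 9.42 and 7.07 FPKM for Endo, 10.05 and 11.04 for HE, 12.0, 14.4 and 16.4 for pre-HSCs, 17.0 and 15.9 for FL HSCs and 20.9 and 23.7 for BM HSCs. Mean levels climbed with each population, but no step between neighbors was called, and only pre-HSCs and FL HSCs overlapped. From pre-HSCs to BM HSCs the log2 fold change was 0.62 ± 0.17 (log2, SE, limma adjusted p of 0.0127), under 2-fold.

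Paralogs can be set side by side because FPKM is scaled to length. The ratio of Insig1 to Insig2 was 3.86 and 5.33 for Endo, 2.89 and 3.05 for HE, 2.39, 2.07 and 1.69 for pre-HSCs, 0.609 and 0.851 for FL HSCs and 0.914 and 1.01 for BM HSCs, so the gene with more transcript switched between pre-HSCs and FL HSCs. Srebf2 exceeded Srebf1 in all 11 libraries. Srebf1 stood at 0.365 to 0.598 of Srebf2 in the 7 earlier libraries, at 0.771 and 0.794 in FL HSCs and at 0.629 and 0.527 in BM HSCs. Scd2, the other desaturase, exceeded Scd1 24.6-fold to 33.0-fold in Endo and HE, 66.5-fold to 93.5-fold in pre-HSCs, 41.4-fold and 40.0-fold in FL HSCs and 191-fold and 186-fold in BM HSCs. These genes resemble each other in sequence, and how reads shared by both copies would be split was not tested.

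**Figure D3:**
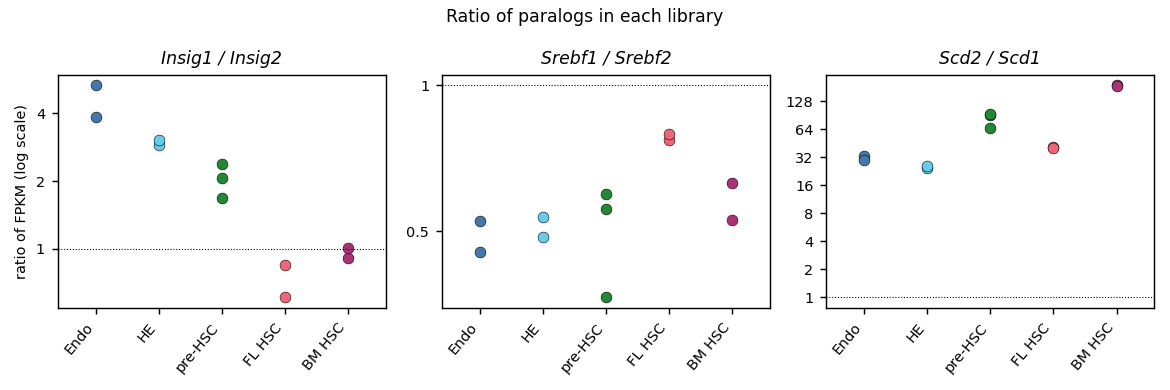
Ratio of FPKM (vertical axes, log scale) of Insig1 to Insig2, Srebf1 to Srebf2 and Scd2 to Scd1 in each library, with 1 point per library and a dotted line at equal levels. Insig1 exceeds Insig2 in the 7 Endo, HE and pre-HSC libraries and not in FL HSCs, Srebf1 stays under Srebf2 throughout, and Scd2 exceeds Scd1 everywhere, most in BM HSCs.

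In the same step Scd1 rose by a change of 1.02 ± 0.24 (log2, SE, limma adjusted p of 0.00615), and 5 of 22 alternatives ended this call, among them the omission of pre-HSC replicate 2, pre-HSC replicate 3 or FL HSC replicate 2. Without the fold limit, limma put 9 of the 28 genes lower and 3 higher in FL HSCs, where it put 18.6% of all genes lower and 21.5% higher. By library, 11 of the 28 were lower and 6 higher without overlap, against 29.4% and 38.1% of all genes. Among the genes gained without that limit, Sqle, the monooxygenase that starts the closing of squalene, was at 40.3, 39.9 and 36.1 FPKM in pre-HSCs and 19.3 and 24.7 in FL HSCs, a change of -0.80 ± 0.14 (log2, SE, limma adjusted p of 0.00138). Hepatocyte markers summed to 9.84 to 42.7 FPKM in FL HSCs, the upper value being the highest of any library. All 5 tested hepatocyte genes had a positive change in this step, with Alb called higher. Of the other markers, 3 of 7 erythroid and 4 of 5 blood genes were called higher. Lower calls were made for 2 of 7 macrophage and 7 of 7 endothelial markers. Their part in these results was not tested.

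From FL to BM HSCs, the step from fetal to adult stem cells, 2 genes fell and none rose, where limma called 4.07% of all genes lower and 5.99% higher. Both were stearoyl-CoA desaturases. With FPKM scaled to equal totals, 1 fell (Scd1) and 1 rose (Stard4), where 1003 of 1468 calls over all genes were higher. Scd1 fell with a change of -1.94 ± 0.27 (log2, SE, limma adjusted p of 0.00114) to the levels under 1 FPKM given above. Scd2 (chr19:44368166-44381354, plus strand) was at 130 and 205 FPKM for Endo, 189 and 211 for HE, 146, 134 and 117 for pre-HSCs, 162 and 188 for FL HSCs and 59.99 and 83.8 for BM HSCs.

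The BM libraries were the lowest for both desaturases and overlapped no other library. The change of Scd2 from FL to BM HSCs was -1.29 ± 0.23 (log2, SE, limma adjusted p of 0.00423). The call of Scd2 was lost under 4 of 22 alternatives, among them the omission of BM HSC replicate 1, and in a fit of only the 4 libraries compared neither gene was called. Transcripts of dividing cells moved alongside, with 3 of 7 proliferation genes called lower. Their sum went from 702 to 806 FPKM in FL HSCs to 364 to 415 in BM HSCs. Markers of other cells moved the same way, with 6 of 7 erythroid, 4 of 7 macrophage and 2 of 5 tested hepatocyte genes called lower. Of 7 endothelial markers 1 was called lower, and of 5 blood markers 1 was called higher. The part of all these markers in the result was not tested.

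Without the fold limit, 5 of the 28 genes were lower and 2 higher in BM HSCs, against 9.65% and 9.74% of all genes, and by library 10 were lower and 7 higher without overlap, against 29.1% and 29.7%. The 17 sterol enzymes showed no call between FL and BM HSCs and a median log2 fold change of -0.05. Over the 28 genes the median was -0.08, and 0.04 with FPKM scaled to equal totals. Stard4 went from 21.1 and 32.5 FPKM (FL HSCs) to 41.9 and 57.2 (BM HSCs) and had a change of 0.88 ± 0.24 (log2, SE, limma adjusted p of 0.0288) that stayed under 2-fold. Without FL HSC replicate 2, the log2 fold changes of Pmvk and Stard4 in this step were -1.17 and 1.18.

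From pre-HSCs to BM HSCs directly, 5 of the 28 genes fell and 1 rose, where limma called 14.5% of all genes lower, 14.3% higher and 28.8% in all. Without the fold limit 13 were lower and 3 higher, against 20.1% and 24.2%. This contrast shares its libraries with the preceding ones. All 5 were sterol enzymes: Fdft1 fell by 1.61 on the log2 scale (SE 0.18, limma's adjusted p = 5.37e-05), Fdps by 1.21, Mvk by 1.11, Sc4mol by 1.09 and Cyp51 by 1.01. Scap rose by 1.41 ± 0.16 (log2, SE, limma adjusted p of 6.5e-05). Without BM HSC replicate 1, Fdps, Sc4mol and Cyp51 were no longer called, at -0.89, -0.73 and -0.93, and Cyp51 was not called without pre-HSC replicate 1 or 2 either. By library, 18 of the 28 genes were lower and 5 higher in BM HSCs without overlap, against 32.0% and 39.7% of all genes, and 14 of the 18 were sterol enzymes.

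Seen over all 11 libraries, the lipid genes followed few courses. Chosen after the values were seen, a split of the 7 Endo, HE and pre-HSC libraries from the 4 FL and BM HSC libraries left no overlap for 10 genes that were lower later, where 17.1% of all genes had none in that direction. They were the sterol enzymes Mvk, Fdps, Fdft1, Sqle, Cyp51, Tm7sf2, Sc4mol, Hsd17b7 and Sc5d and the anchor gene Insig1. The genes higher later without overlap were Srebf1, Srebf2 and Scap, 3 of 28 where 20.3% of all genes were so. A split of the 4 endothelial libraries from the other 7 was also chosen after the values were seen. It left 11 genes without overlap and lower later, against 7.42% of all genes, namely 10 sterol enzymes and Fasn. It left 1 gene, Insig2, higher later, against 16.3%. Both splits were drawn from the values they describe, so these shares are a description and not a test.

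As a description over 11 libraries that share populations, each gene was correlated with the mean of the other 27. Sqle followed the others most closely (Pearson's r = 0.91), then Acat2 at 0.86 and Fdps and Nsdhl at 0.85. The most opposed were Insig2 at -0.87, Scap at -0.76, Stard4 at -0.64, Srebf1 at -0.57 and Srebf2 at -0.51. Of the 5 regulators only Insig1 had a positive value, at 0.63.

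**Figure D4:**
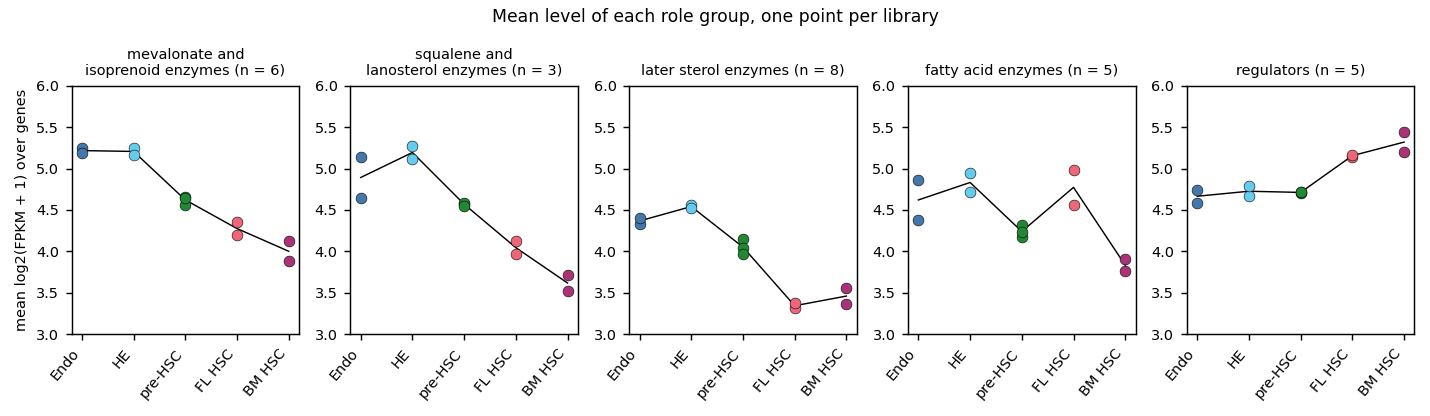
Mean of log2(FPKM + 1) over the genes of each role (vertical axes, the same range in each panel), with 1 point per library and a line through population means. The 3 panels of sterol enzymes step down after HE, from 4.53 and 4.55 in HE to 3.31 and 3.37 in FL HSCs for the 8 later sterol enzymes, the fatty acid enzymes dip in pre-HSCs and BM HSCs, and the regulators reach 5.14 to 5.44 in FL and BM HSCs.

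Not every enzyme stepped down. Levels of Idi1 (isopentenyl diphosphate isomerase) were 8.20 to 20.8 FPKM over the 11 libraries, of Ggps1 (which makes the geranylgeranyl anchor) 5.61 to 12.9, of Ebp (a sterol isomerase) 15.0 to 26.8, and of Elovl6 (which lengthens palmitate) 6.51 to 12.8. None of these 4 passed the F test, with adjusted p by limma of 0.157, 0.398, 0.464 and 0.619. Acaca, the carboxylase that makes malonyl-CoA for fatty acids, spread widely within populations, at 17.3 and 39.9 FPKM in FL HSCs and 8.36, 17.8 and 20.04 in pre-HSCs, and did not pass the F test either (limma's adjusted p = 0.0883). Pmvk was at 33.6 and 20.4 FPKM in FL HSCs, a spread that bridged its levels in HE and pre-HSCs. Dhcr7, the last reductase to cholesterol, was at 33.2 to 43.3 FPKM in the 4 endothelial libraries and 16.8 to 30.6 in the other 7, without overlap and with no call in any step. Hsd17b7 was at 3.52 to 6.18 FPKM in the 7 earlier libraries and 2.76 to 3.51 in FL and BM HSCs.

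Other genes of sterol and isoprenoid metabolism, a list of 12 tested genes, showed 1 call in the 4 steps, where 35% of all genes were called. The called gene was Tmem97, a sterol-binding membrane protein that fell from FL to BM HSCs with a change of -1.35 ± 0.19 (log2, SE, limma adjusted p of 0.00116). Of 17 other genes of fatty acid synthesis, none was called from Endo to HE or from FL to BM HSCs. Me1 fell from HE to pre-HSCs, where 4.34% of all genes fell. From pre-HSCs to FL HSCs, where 11.1% of all genes rose and 13.9% fell, 3 of the 17 rose and 1 fell. Acss2, which makes acetyl-CoA from acetate, rose the most of these, from a mean of 1.29 FPKM in pre-HSCs to 23.6 in FL HSCs, with a change of 3.42 ± 0.23 (log2, SE, limma adjusted p of 1.96e-06). The medians of the 17 genes were -0.18 from HE to pre-HSCs and 0.50 from there to FL HSCs, beside 0.09 and 0.11 over all genes.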

How the data were processed

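Per the methods of the study, poly(A)-selected RNA was sequenced in paired ends, reads were aligned to mm9 with TopHat, uniquely mapped reads were kept and Ensembl genes were counted. The submitters' processing notes list, as tools of the authors, TopHat, Subread with featureCounts, Cufflinks and edgeR, without versions. The deposited values are FPKM for each gene in each library, in 1 table that the authors made by a tool not given in the sources used here. Depth is unknown, so no counting interval is given, and an exact 0 can be a failed estimate. The authors tested counts with edgeR. FPKM values do not allow that test, and limma took its place. Symbols for 37038 of 37820 gene IDs and mm9 positions, counted from 1, came from the GENCODE M1 annotation. All 11 columns were used.

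Genes that reached 1 FPKM in 2 or more libraries (14708) entered a linear model of log2(FPKM + 1) with population as the factor, fitted over the 11 libraries (R 4.3.3, limma 3.58.1, lmFit and eBayes with a trend). Fold changes are on that scale, which understates changes of low genes, and p-values were Benjamini-Hochberg adjusted over all tested genes. The spread is shared across populations, which matters most where a population has 2 libraries. The study calls the libraries biological replicates, and nothing says how the cells of 2 libraries were kept apart. The p-values therefore weigh differences between population means against the spread among these libraries, whose independence is not known. As a check of the code, known changes were added to simulated data with independent normal errors. This does not cover litters shared by libraries or changes of low genes. Python 3.11.15 was used for tables, motif counts and plots, with matplotlib 3.10.9, numpy 2.4.6 and pandas 2.3.3.

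The genes and the other lists were chosen with earlier results of these data known. Values in every library were given for genes called between neighboring populations, for the regulators and for paralog pairs, and the others by range and count. From the other lists a gene was named only where it was called with the largest change of its list in a step, or where a result turned on it. Markers were lists of 7 endothelial, 5 blood, 8 hepatocyte, 7 erythroid, 7 macrophage, 5 adipocyte and 7 proliferation genes. Alternatives were other pseudocounts (0.1 and 0.5), no filter, a minimum of 5 FPKM, scaling of FPKM to equal totals, quantile normalization, no fold limit, no F test step, a stricter adjusted p of 0.01, the replicate number as a block, a fit of only the libraries compared, and each library left out in turn.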

Additional observations from a re-analysis of the deposited data

How the results depend on the processing

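Of the 20 calls of lipid genes in the 5 contrasts, 10 were kept under all 22 alternatives and none reversed. Between HE and pre-HSCs, 4 genes were called, 2 with FPKM scaled to equal totals and 12 with no fold limit. Between FL and BM HSCs, 2 were called, 1 with quantile normalization, 7 with no fold limit, 0 in a limma fit of only the libraries compared, in which no gene of the whole table was called, and 4 without FL HSC replicate 2. From pre-HSCs to BM HSCs, 6 were called and 16 with no fold limit. Over all genes, calls from HE to pre-HSCs went from 1665 to 1788 with equal totals and to 3486 with no fold limit. From FL to BM HSCs they went from 1480 to 1254 with quantile normalization and to 2852 with no fold limit. From pre-HSCs to BM HSCs no fold limit took them from 4234 to 6513. Leaving out each library in turn gave 0 calls throughout from Endo to HE, 3 (without HE replicate 1 or pre-HSC replicate 1) to 6 (without HE replicate 2) from HE to pre-HSCs, 6 (without FL HSC replicate 2) to 8 from pre-HSCs to FL HSCs, 2 to 4 from FL to BM HSCs, and 4 (without BM HSC replicate 1) to 8 (without BM HSC replicate 2) from pre-HSCs to BM HSCs. The number of calls over all genes also changed with the library left out, so these ranges do not set the lipid genes apart. The cause of these differences was not tested, except that a population left with 1 library was assumed to vary like the others.

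With FPKM scaled to equal totals, the median log2 fold change of all genes moved by 0.13 from HE to pre-HSCs, by -0.20 from pre-HSCs to FL HSCs and by -0.10 from pre-HSCs to BM HSCs, and with quantile normalization by -0.11 from HE to pre-HSCs. The medians of the 28 genes from HE to pre-HSCs were then -0.34 beside 0.22 over all genes with equal totals, and -0.37 beside -0.02 with quantile normalization. From pre-HSCs to FL HSCs with equal totals they were -0.42 and -0.09, with 1 gene called higher and 7 lower where 3 and 5 were called before. Over all genes, equal totals put 1312 of 1788 calls higher from HE to pre-HSCs, where 1026 of 1665 were, and quantile normalization 802 of 1634.

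Replicate numbers were not shown to mark shared litters or days, and same-numbered libraries of 2 populations deviated together only weakly, with correlations from -0.16 to 0.16. When the replicate number entered as a block, 0, 4, 8, 2 and 7 genes were called in the 5 contrasts, against 0, 4, 8, 2 and 6. Under the block, Acaca from pre-HSCs to FL HSCs (1.04) and Scd1 from pre-HSCs to BM HSCs (-1.02) were called in addition, and the rise of Scd1 from pre-HSCs to FL HSCs (0.92) was not.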

Other observations

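Of 17 tested genes of fatty acid oxidation, limma called none from Endo to HE, 1 higher in each of the next 3 steps and 4 higher from pre-HSCs to BM HSCs, and none lower in any contrast. Over all genes, 6.98%, 11.1% and 5.99% were called higher in those steps and 14.3% from pre-HSCs to BM HSCs, so the share of the 17 genes was under that of all genes in each single step. Cpt1a, which lets long fatty acids into mitochondria, was the gene that rose both from HE to pre-HSCs, with a change of 1.64 ± 0.19 (log2, SE, limma adjusted p of 0.000464), and from FL to BM HSCs, with a change of 1.76 ± 0.21 (log2, SE, limma adjusted p of 0.000544), where its mean went from 14.6 to 51.6 FPKM. Etfb, which passes on electrons from the oxidation, rose from pre-HSCs to FL HSCs by 1.31 ± 0.26 (log2, SE, limma adjusted p of 0.00218). The medians of the 17 genes were 0.07, 0.41 and 0.14 in these 3 steps, beside 0.09, 0.11 and 0.00 over all genes.

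Of 10 tested genes of sterol efflux, storage and LXR, the receptor that senses excess sterol, 3 rose from HE to pre-HSCs, 4 rose and 2 fell from pre-HSCs to FL HSCs and 1 fell from FL to BM HSCs. Of all genes, 6.98% rose in the first of these steps, 11.1% rose and 13.9% fell in the next, and 4.07% fell in the last. Apoe, the lipid carrier protein, rose from a mean of 137 FPKM in HE to 1326 in pre-HSCs, with a change of 2.99 ± 0.64 (log2, SE, limma adjusted p of 0.0088). In order of replicate, the pre-HSC libraries held 1182, 429 and 2367 FPKM of Apoe. Macrophages make much Apoe, and the macrophage genes rose in the same step, to sums of 579, 220 and 1183 FPKM in the pre-HSC libraries in the same order. Their part in the result was not tested. Abca1, which exports cholesterol, fell from pre-HSCs to FL HSCs with a change of -1.98 ± 0.26 (log2, SE, limma adjusted p of 0.000166). Of 10 genes of sterol uptake and transport, none was called from Endo to HE or from HE to pre-HSCs. Of all genes, 0.129% and 11.3% were called in these steps. In each of the next 2 steps 1 of the 10 fell, beside the 13.9% and 4.07% of all genes that fell. Gramd1a, a sterol transfer protein, fell from pre-HSCs to FL HSCs by 1.26 ± 0.21 (log2, SE, limma adjusted p of 0.000824) and Scarb1, the receptor for high-density lipoprotein, from FL to BM HSCs by 1.10 ± 0.17 (log2, SE, limma adjusted p of 0.00234).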
